A study of Homo sapiens with 72 samples.

Results

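The mRNA of 2 TUT4/7 mutant clones of DU145, clone 1 and clone 2, was compared with each other in the absence and in the presence of LIN28A. DU145 is a human prostate carcinoma line. The comparison used every mRNA library labelled as mutant clone 1 or clone 2 of this line, 16 of the 72 samples of the series, as 4 groups of 4 libraries. The 8 wild-type DU145 mRNA libraries entered neither contrast and served only to place the level of each gene. The clones came from EGFP-positive cells sorted after editing with the D10A nickase of Cas9 and paired guides against TUT4 exon 12 and TUT7 exon 14. Sorting was done singly or in bulk, and which of these gave each clone was not given in the sources used here. In one line the clones carried no added LIN28A (LIN28A-negative), and in the other they had been transduced with a lentivirus that drives LIN28A from the CMV promoter and selected with puromycin (LIN28A-overexpressing). Wild-type cells existed in both forms. By label the LIN28A-negative libraries were passages 9 to 12 of clone 1, 8 to 11 of clone 2 and much later ones, up to 160, of wild type, and the LIN28A-overexpressing libraries were passages 1 to 4 of each. The clone 1 libraries carried 1 clone name at 4 passages. The last field of the clone 2 name differed between its replicates, so these may be 1 clone at 4 passages or 4 related subclones, and the spread within clone 2 may include differences between subclones. All p-values measured the spread between libraries of a group, not between independently edited clones, and since the same clones were used in both lines, the lines were not independent of each other.

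TUT4 and TUT7 are terminal uridylyltransferases, enzymes that add uridines to the 3′ ends of RNA, and LIN28A is an RNA-binding protein that brings them to let-7 precursors. DU145 is aneuploid. Cancer cell lines are mixtures of cells that differ in copy number and in the genes they keep silent, and a culture grown from a single cell takes over the state of its founder. A pair of clones made with the same guides therefore shares the targeted genes and can still differ elsewhere in the genome.

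The 16 libraries held 7195437 to 19402406 counts in genes, with a median of 11910428, and 16402 to 18228 genes had a count. Libraries of the same clone and line had Pearson correlations of log2 CPM (counts scaled to library size) of 0.978 to 0.994 across genes, those of the same clone in the other line 0.941 to 0.988, and those of the other clone in the same line 0.910 to 0.937. The first principal component (59.6% of variance) had the 8 clone 1 libraries on one side and the 8 clone 2 libraries on the other. LIN28A-negative replicate 4 of both clones stood apart on the next components, so counts are also given without them. LIN28A-overexpressing clone 1 was split on the second component, with replicates 1 and 2 at -3.99 and -10.3 and replicates 3 and 4 at -43.6 and -32.7. The share of reads in no annotated gene was 9.01 to 10.2% in clone 1 and 11.1 to 12.3% in clone 2 among LIN28A-overexpressing libraries, without overlap, and its part in the results was not tested. All 5 epithelial markers looked at (KRT8, KRT18, KRT19, EPCAM and CDH1) were above 1 CPM in every group. Of 7 markers of the luminal prostate lineage 1 reached 1 CPM, and KLK2 and KLK3 were at or near 0 in both clones.

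The targeted genes were not equal in the clones. TUT4 (listed as ZCCHC11, chr1:52423275-52553463 in GRCh38.p14) was at 15.8, 13.5, 15.2 and 5.55 CPM in replicates 1 to 4 of LIN28A-negative clone 1 and at 42.5, 45.7, 42.4 and 27.0 CPM in those of clone 2. In the LIN28A-overexpressing line it was at 16.3, 17.8, 23.9 and 21.4 CPM in clone 1 and at 55.0, 55.0, 59.6 and 55.9 CPM in clone 2. No clone 1 library reached the lowest clone 2 library of its line, and the log2 difference of clone 1 to clone 2 was -1.66 ± 0.23 (SE; adjusted p = 7.92e-06) and -1.53 ± 0.21 (adjusted p = 8.23e-06). Wild type averaged 58.7 and 68.2 CPM, above the means of both clones. TUT7 (listed as ZCCHC6) averaged 14.7 against 22.5 CPM and 23.3 against 33.4 CPM, with 44.7 and 64.2 CPM in wild type. Its differences of -0.63 ± 0.23 and -0.54 ± 0.21 had adjusted p = 0.0267 and 0.0361, which missed the threshold of 0.01. Without LIN28A-negative clone 1 replicate 1 the LIN28A-negative adjusted p was 0.00345, without clone 2 replicate 4 it was 0.00503, and without replicate 4 of both LIN28A-negative clones the values were 0.00805 and 0.00347. With the replicate number as a block they were 0.00217 and 0.00416. The labels state no pairing by number, but same-numbered LIN28A-overexpressing libraries of the clones had the same passage label. These counts cover the whole gene and do not read the edit itself.

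LIN28A was at no more than 0.302 CPM in any LIN28A-negative mutant library. After transduction it was at 418, 329.9, 396 and 381 CPM in clone 1, 211, 301, 221 and 237 CPM in clone 2 and 65.6 to 76.9 CPM in wild type. Both clones were thus above wild type and clone 1 was above clone 2, with a log2 difference of 0.63 ± 0.13 (adjusted p = 0.000554). Among the 12 tested genes of the list of terminal nucleotidyltransferases, LIN28 and DIS3L2, only TUT4 and DIS3L2, the exonuclease that degrades uridylated RNA, differed in the same direction in both lines. They were 16.7% of the list, beside 29.4% of all tested genes. DIS3L2 was higher in clone 1 by 0.51 and 0.43 log2. Without LIN28A-negative clone 2 replicate 3, or without LIN28A-overexpressing clone 1 replicate 3, clone 2 replicate 2 or clone 2 replicate 3, DIS3L2 was no longer called and the count for the list was 1. It was 3 without LIN28A-negative clone 1 replicate 4 and 4 without replicate 4 of both LIN28A-negative clones or with a replicate block.

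The clones differed over a large part of the transcriptome, and mostly in the same direction in both lines. Of 14486 genes tested, 5591 (38.6%) differed in the LIN28A-negative line at an adjusted p below 0.01, 2758 (19%) higher in clone 1 and 2833 (19.6%) higher in clone 2. In the LIN28A-overexpressing line 6666 genes (46%) differed, 3244 (22.4%) higher in clone 1 and 3422 (23.6%) higher in clone 2. A call with the same sign in both lines was made for 4266 genes (29.4%), 2074 (14.3%) higher in clone 1 and 2192 (15.1%) higher in clone 2. They were 76.3% of the genes called in the LIN28A-negative line and 64.0% of those called in the LIN28A-overexpressing line. Without replicate 4 of both LIN28A-negative clones there were 4434, of which 3979 were among the 4266. The log2 differences of the lines had a Pearson correlation of 0.87 across the 14486 genes, which are not independent replicates and share the clones. In bulk RNA, a change in the share of cells that express a gene and a change in the level per cell cannot be told apart.

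**Figure D1:**
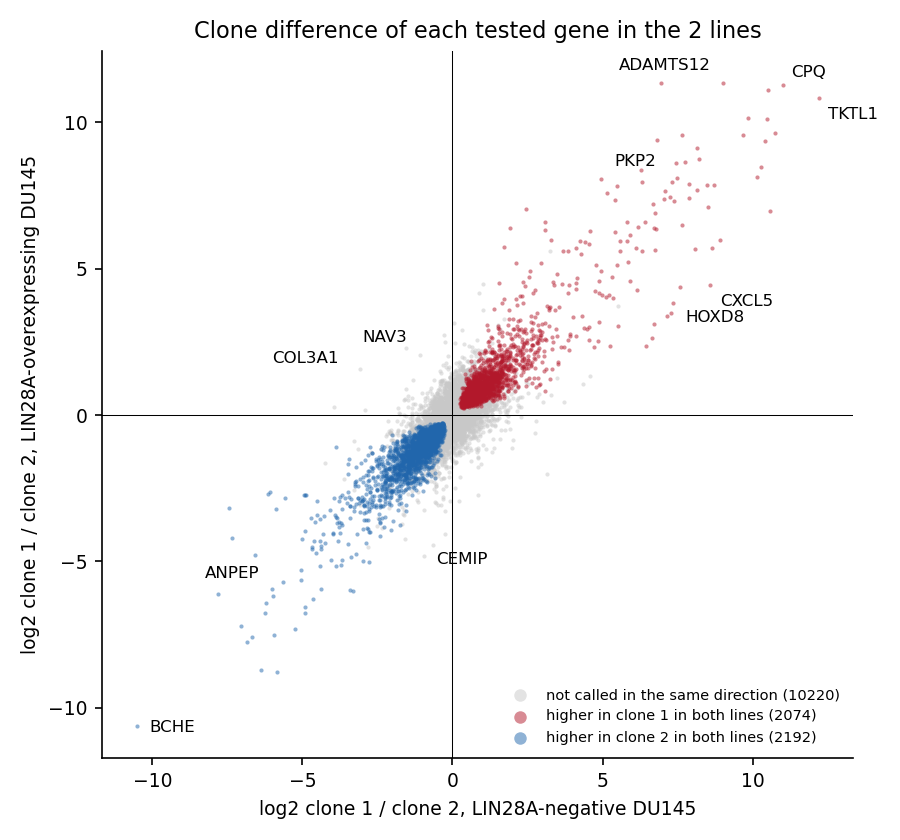
Log2 difference of clone 1 to clone 2 for each of 14486 tested genes in LIN28A-negative (x axis) and LIN28A-overexpressing DU145 (y axis). Red points are the 2074 genes higher in clone 1 in both lines, blue points the 2192 higher in clone 2 and grey points all others, and the named genes range from BCHE at the lower left to TKTL1 at the upper right.

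Many of the differences were large. The median absolute log2 difference of the 4266 genes was 0.92 in the LIN28A-negative and 0.94 in the LIN28A-overexpressing line. At least 1 log2 in both lines was reached by 1603 genes (11.1%), 688 higher in clone 1 and 915 higher in clone 2, and at least 3 log2 by 181 genes, 108 higher in clone 1 and 73 higher in clone 2. The 4 libraries of each clone did not overlap, in the same direction in both lines, for 4615 genes (31.9% of those tested), 3919 of them among the 4266. Protein-coding genes and lncRNAs had similar shares, 29.5% of 13150 and 28.5% of 681.

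The genes with the largest differences towards clone 1 were nearly silent in clone 2. Genes named here for the widest differences had to be called in both lines by edgeR, with no overlap between the libraries of the clones. Fitted differences of genes without a count depend on a prior count, so bounds or ratios of counts are given for those. TKTL1, a transketolase-like gene (chrX:154295795-154330350), was at 44.8, 48.4, 44.2 and 50.9 CPM in LIN28A-negative clone 1 and had no count in the 4 clone 2 libraries, which makes it at least 659-fold higher against a floor of 3 counts over the group. In the LIN28A-overexpressing line clone 1 was at 43.8, 44.0, 48.4 and 50.3 CPM and clone 2 had 1 count. Wild type held it at 8.996 to 13.01 CPM without LIN28A and 1.54 to 3.48 CPM with LIN28A, between the clones.

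ROBO1, an axon guidance receptor (chr3:78597239-79767998), was at 13.9, 11.6, 17.1 and 14.8 CPM and then 19.8, 25.3, 20.9 and 19.7 CPM in clone 1. It had no count in any of the 8 clone 2 libraries, which gives at least 202-fold and at least 451-fold. CPQ, a plasma carboxypeptidase, was likewise without a count in clone 2 and at 20.1 to 20.8 and 17.8 to 31.2 CPM in clone 1, at least 288-fold and 512-fold higher. Every clone 1 library of both genes was above every wild-type library, where ROBO1 averaged 1.06 and 0.442 CPM and CPQ 5.32 and 5.43 CPM.

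SFRP1, a secreted inhibitor of WNT signalling (chr8:41261962-41309473), had a different relation to wild type. It was at 28.6, 32.9, 27.3 and 21.3 CPM in LIN28A-negative and 28.8, 27.9, 64.9 and 54.0 CPM in LIN28A-overexpressing clone 1, against 1 and 3 counts in the clone 2 libraries. The ratios were 1193-fold (95% counting interval 214 to 47170.0) and 946-fold (95% counting interval 323 to 4590.0). Wild type was at 40.8, 47.4, 49.99 and 61.1 CPM and 36.5, 33.3, 38.2 and 35.5 CPM, so that clone 2 was the one without the transcript.

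Other genes of this end of the range were COL5A1 and COL4A5, which encode collagen chains, the extracellular protease ADAMTS12, the proteoglycans SDC2 and SPOCK1, the lysophospholipid acyltransferase LPCAT2, the junction-associated protein AMOT and the zinc-finger gene ZC4H2. Their clone 1 means ran from 5.50 CPM (SPOCK1, LIN28A-overexpressing) to 94.8 CPM (SDC2, LIN28A-overexpressing), and no clone 2 mean was above 0.219 CPM (SDC2, LIN28A-overexpressing). ZC4H2 had no count in clone 2 in either line, at least 195-fold and 229-fold. COL4A5 was at 64.8, 56.4, 62.2 and 52.6 CPM and 61.6, 63.8, 84.5 and 75.0 CPM in clone 1, above wild type at 7.46 to 11.5 and 2.25 to 4.09 CPM. COL4A6, which lies head to head with COL4A5 on the X chromosome, was also higher in clone 1, at 3.93 against 0.0766 CPM and 3.53 against 0.0644 CPM.

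BCHE, which encodes butyrylcholinesterase (chr3:165772904-165837423), had the largest difference towards clone 2. It was at 93.8, 110.3, 97.8 and 51.0 CPM in LIN28A-negative clone 2 and at 149, 172, 155 and 190.1 CPM in LIN28A-overexpressing clone 2. The clone 1 libraries held 2 counts in all in the LIN28A-negative line, a ratio of 1698-fold (95% counting interval 469.8 to 14030.0), and 0 to 0.149 CPM in the other line. Wild type expressed it at 96.9 to 163 and 180.4 to 332 CPM, with means above those of clone 2, so here clone 1 was the one without the transcript.

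CSPG4, a membrane chondroitin sulfate proteoglycan, was higher in clone 2 than in clone 1, at 59.5, 61.6, 65.1 and 57.3 against 2.82, 1.80, 2.64 and 2.47 CPM without LIN28A and at 81.9, 65.6, 71.7 and 70.8 against 3.05, 3.35, 2.91 and 2.99 CPM with it, log2 differences of -4.68 ± 0.13 and -4.58 ± 0.12. Its wild-type means of 24.2 and 40.4 CPM lay between the clones. ANPEP, the cell-surface aminopeptidase CD13, was at 11.7 to 18.2 against 0 to 0.0949 CPM and 5.86 to 6.90 against 0 to 0.149 CPM, and its wild-type means of 1.67 and 0.241 CPM lay between the clones.

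MUC16, the membrane mucin known as CA125, was at 28.5, 49.8, 41.0 and 14.9 CPM in LIN28A-negative clone 2 against 2.09 to 3.19 CPM in clone 1. With LIN28A it was at 159.5, 116, 128 and 133 against 3.05 to 5.10 CPM, and the groups did not overlap in either line. The remaining genes at this end were the scavenger receptor SCARA5, the prostaglandin transporter SLCO2A1, the aspartic protease NAPSA, the small GTPase RAC2, the ERBB4 ligand NRG4, TMEM45B and HERC2P9, with log2 differences from -3.70 (TMEM45B, LIN28A-negative) to -6.55 (SCARA5, LIN28A-overexpressing). HERC2P9 is a pseudogene with near-identical copies, so its counts are uncertain.

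Promoters are shown for 4 of the genes with these extreme differences that have a single start in the RefSeq table (GRCh38.p14, 250 bases before to 50 bases after the start), 2 higher in clone 1 and 2 higher in clone 2. Capitals mark CG, searched as those letters, which read the same on both strands. COL4A5 (chrX:108439588-108439887, plus strand) held 8 CG and ADAMTS12 (chr5:33891941-33892240, minus strand) 24. BCHE (chr3:165837374-165837673, minus strand) held 2 and CSPG4 (chr15:75712799-75713098, minus strand) 19. Of 27305 genes with a promoter in the table, 56.0% held at least 10 CG in the window, and the median was 14. Of the 11299 tested genes with a promoter 88.1% did (median 26). Among genes that differed by at least 3 log2 in both lines, the share was 54.8% of 73 higher in clone 1 (median 11) and 67.4% of 43 higher in clone 2 (median 16), both below that of the tested genes. Genes this far apart can pass the filter on low counts through the higher clone alone, and no tested genes of like level were compared. The lower shares were therefore not read as a trait of these genes. These files hold no methylation measurement.
COL4A5: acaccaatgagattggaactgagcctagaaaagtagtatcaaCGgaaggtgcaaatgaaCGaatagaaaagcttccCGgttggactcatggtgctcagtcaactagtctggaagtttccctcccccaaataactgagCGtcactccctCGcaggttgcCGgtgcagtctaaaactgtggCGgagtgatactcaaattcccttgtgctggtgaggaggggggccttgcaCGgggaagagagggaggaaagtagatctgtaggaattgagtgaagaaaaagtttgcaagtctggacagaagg
ADAMTS12: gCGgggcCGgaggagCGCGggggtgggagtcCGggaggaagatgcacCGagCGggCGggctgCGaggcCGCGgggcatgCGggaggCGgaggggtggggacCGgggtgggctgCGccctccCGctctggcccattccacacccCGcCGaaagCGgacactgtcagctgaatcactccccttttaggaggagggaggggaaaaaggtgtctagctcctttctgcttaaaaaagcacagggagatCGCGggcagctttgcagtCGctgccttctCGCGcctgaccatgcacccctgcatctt
BCHE: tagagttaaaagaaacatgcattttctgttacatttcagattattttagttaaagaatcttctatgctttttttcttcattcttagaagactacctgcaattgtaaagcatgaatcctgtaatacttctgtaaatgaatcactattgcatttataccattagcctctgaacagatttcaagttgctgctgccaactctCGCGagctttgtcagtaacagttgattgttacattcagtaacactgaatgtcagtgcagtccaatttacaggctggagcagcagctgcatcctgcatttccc
CSPG4: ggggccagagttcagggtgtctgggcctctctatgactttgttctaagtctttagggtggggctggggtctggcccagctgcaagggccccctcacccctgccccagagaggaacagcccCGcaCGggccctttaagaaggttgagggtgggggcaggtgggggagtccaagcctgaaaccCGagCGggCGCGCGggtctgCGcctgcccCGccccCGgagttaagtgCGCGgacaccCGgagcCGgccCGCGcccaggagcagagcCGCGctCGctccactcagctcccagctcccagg

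**Figure D2:**
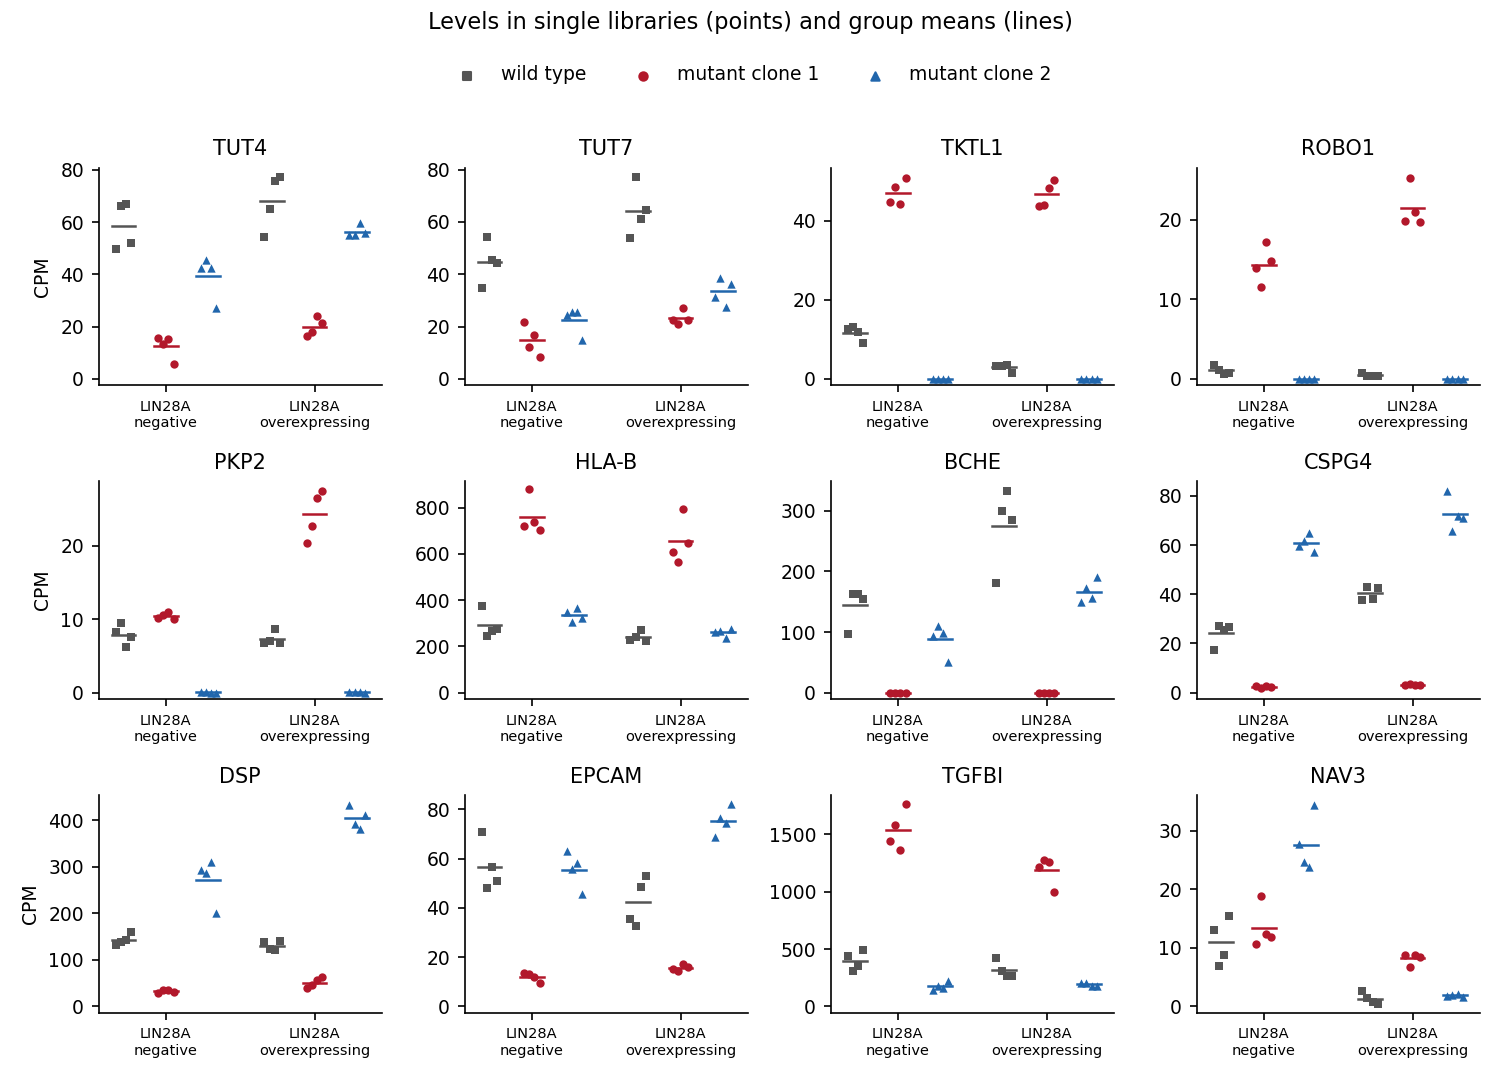
Levels of 12 genes in CPM (y axis, linear from 0) in each DU145 mRNA library, with lines at the means of the 4 libraries of a group, for wild type (grey squares), clone 1 (red circles) and clone 2 (blue triangles) in LIN28A-negative (left) and LIN28A-overexpressing cells (right). TKTL1, ROBO1 and PKP2 sit at or near 0 in clone 2, BCHE at or near 0 in clone 1, and NAV3 changes its order between the lines.

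A stricter description asked which genes were at 1 CPM or more in all 8 libraries of one clone and under 0.1 CPM in all 8 of the other. There were 17 such genes for clone 1 and 4 for clone 2. Of the 17, 7 had no count at all in clone 2, among them ROBO1, CPQ, ZC4H2 and the calcium/calmodulin kinase CAMK4, 5 lay on the X chromosome, 3 on chromosome 8 and 2 on chromosome 5. Wild type was at 1 CPM or more in all 8 of its libraries for 9 of the 17, and below the clone 1 mean in both lines for 14. The 4 genes of clone 2 were the antisense RNA ZNF503-AS1, the phospholipase PLA2G4A, the zinc-finger factor ZIC5 and CNRIP1, and wild type was below the clone 2 mean in both lines for 3 of them. The count for clone 1 ranged from 17 to 23 and that for clone 2 from 4 to 6 when a library was left out, and without LIN28A-overexpressing clone 1 replicate 1 the latter was 6.

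Most of the widest differences had wild type in between, as had most of the 4266 genes called with the same sign. Of the 181 genes that differed by at least 3 log2 in both lines, the mean wild-type level lay between the clones for 143 in the LIN28A-negative and 145 in the LIN28A-overexpressing line. It lay above both clones for 33 and 23 genes, and below both for 5 and 13. Among the 73 of them that were higher in clone 2, wild type was between the clones and nearer clone 2 for 37 and 39, and nearer clone 1 for 17 and 16. Among the 108 higher in clone 1, it was between them and nearer clone 1 for 52 and 46 and nearer clone 2 for 37 and 44. Neither clone was thus the one nearer to wild type throughout.

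Antigen presentation genes were higher in clone 1. All 15 tested members of the MHC class I list, which covers the heavy chains, β2-microglobulin, the peptide transporter, immunoproteasome subunits and the trimming aminopeptidases, were called higher in clone 1 in both lines, against 14.3% of all tested genes. Their log2 differences ranged from 0.42 to 1.91 (median 0.83) and from 0.64 to 2.05 (median 1.00), beside medians of -0.01 and -0.00 for all tested genes, and 10 of the 15 lie on chromosome 6. When a library was left out, 13 to 15 were called. The lists here and below were chosen with earlier results of these data known, so their shares are descriptions and not tests.

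HLA-B was at 719.9, 881, 738 and 705 CPM in LIN28A-negative clone 1 and 349, 307, 368 and 321 CPM in clone 2. With LIN28A it was at 607, 566, 794 and 649 against 261, 267, 238 and 275 CPM, and the clone 2 libraries overlapped those of wild type (means of 291 and 240.3 CPM). ERAP2, which trims peptides in the endoplasmic reticulum, was at 139.7, 116, 133 and 78.6 against 31.9, 35.0, 34.4 and 20.4 CPM and at 103 to 122 against 25.6 to 27.8 CPM, log2 differences of 1.91 ± 0.17 and 2.05 ± 0.17. The immunoproteasome subunits PSMB9 and PSMB10 differed by 1.12 and 1.38 and by 1.06 and 1.62. HLA genes are near-identical in part, so counts of single heavy chains are uncertain. Interferon-stimulated genes as a list were split: of 36 tested, 5 (13.9%) were higher in clone 1 and 5 higher in clone 2 in both lines, near the shares of all tested genes, with medians of -0.14 and 0.56. IFITM3, a membrane protein that restricts virus entry, was higher in clone 1 by 4.02 and 3.35 log2 and close to wild type there (78.9 against 81.4 CPM in the LIN28A-negative line), whereas IRF7, STAT2, USP18, ISG20 and LY6E were higher in clone 2. The count of 5 higher in clone 2 was 3 without LIN28A-negative clone 1 replicate 3 or clone 2 replicate 1.

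Genes of cell junctions and epithelial identity were more often higher in clone 2. Of 27 tested, 13 were called higher in clone 2 and 2 higher in clone 1 in both lines (background 15.1% and 14.3%), with medians of -0.65 and -0.62 log2. DSP, which encodes the desmosomal linker desmoplakin, was at 292, 286, 311 and 201 CPM in LIN28A-negative clone 2 and 28.2, 35.4, 35.6 and 30.2 CPM in clone 1, and at 433, 391, 381 and 412 against 39.3, 46.3, 56.0 and 62.9 CPM with LIN28A. EPCAM, the epithelial adhesion molecule, was at 45.5 to 63.0 against 9.40 to 13.7 CPM and 68.8 to 82.2 against 14.3 to 17.2 CPM. The splicing regulator ESRP1 differed by -3.40 and -3.12 log2, and E-cadherin (CDH1) by -0.57 and -0.59. Without LIN28A the CDH1 libraries overlapped, at 41.3 to 78.5 CPM in clone 2 and 35.7 to 50.8 CPM in clone 1. With LIN28A they did not, at 126 to 162 CPM in clone 2 and 88.0 to 110 CPM in clone 1.

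PKP2, another desmosomal gene, went the other way. It was at 10.2, 10.6, 10.9 and 10.02 and 20.4, 22.7, 26.6 and 27.4 CPM in clone 1, whereas the clone 2 libraries held 2 counts in all in the LIN28A-negative line and 0 to 0.143 CPM in the other. Wild type was at 6.25 to 9.47 and 6.74 to 8.69 CPM. Plakoglobin (JUP) was also higher in clone 1, by 0.92 and 0.48. The count of 2 was 1 without LIN28A-negative clone 1 replicate 2, without LIN28A-overexpressing clone 1 replicate 3 or 4, or without LIN28A-overexpressing clone 2 replicate 1, 2 or 3. Of 11 keratins tested, 0 were called higher in clone 1 and 3 (KRT4, KRT80 and KRT81) higher in clone 2 in both lines, 27.3% in either direction beside 29.4% of all tested genes. In the LIN28A-negative line 2 were called higher in clone 1 and 4 higher in clone 2. KRT81 shares sequence with KRT86, so its count is uncertain, and KRT80 lost its call in the LIN28A-overexpressing line without clone 1 replicate 1 or 2, or clone 2 replicate 2.

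Genes of the mesenchymal list were more often higher in clone 1. Of 18 tested, 6 were called higher in clone 1 and 1 (NT5E, the ectonucleotidase CD73) higher in clone 2 in both lines, 33.3% and 5.56% beside 14.3% and 15.1% of all tested genes, with medians of 0.54 and 0.78 log2. TGFBI, a secreted matrix protein, was at 1441, 1586, 1363 and 1762 CPM in LIN28A-negative clone 1 against 146, 178, 159.5 and 226 CPM in clone 2, and at 998 to 1276 against 178 to 207 CPM with LIN28A. SNAI2, a transcriptional repressor of epithelial genes, was at 15.1, 11.4, 13.8 and 18.3 against 4.03, 2.64, 2.71 and 2.78 CPM and at 19.5 to 27.9 against 2.48 to 4.996 CPM. The related repressor ZEB2 differed by 1.89 and 3.29, the collagen cross-linking enzymes LOX and LOXL2 by 3.33 and 2.25 and by 2.63 and 1.70, and the hyaluronan receptor CD44 by 1.27 and 1.46. Vimentin (VIM) differed by 0.20 and 0.87 and ZEB1 by -0.00 and 0.33, and neither was called in both lines. Of the 6 genes higher in clone 1, 4 lie on chromosomes 5 and 8, whose genes were mostly higher in clone 1.

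Matrix genes higher in clone 1 outnumbered those higher in clone 2. Of 36 collagens, laminins and integrins tested, 13 (36.1%) were higher in clone 1 and 6 (16.7%) higher in clone 2 in both lines, beside 14.3% and 15.1% of all tested genes. Of 18 extracellular proteases and inhibitors 7 (38.9%) were higher in clone 1 and 2 (11.1%) higher in clone 2. Besides COL4A5, COL4A6 and COL5A1, the integrin chains ITGA1, ITGA2 and ITGAV were higher in clone 1, and the laminin chains LAMA1 and LAMA3 were higher in clone 2. PLAU, which encodes urokinase, was higher in clone 2, at 688 against 217 CPM and 340.0 against 113 CPM.

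Of 27 chemokine, cytokine and NF-kB response genes, 5 (18.5%) were higher in clone 1 and 7 (25.9%) higher in clone 2 in both lines, beside 14.3% and 15.1% of all tested genes. CXCL5, a neutrophil-attracting chemokine, was at 4.04, 2.94, 3.74 and 4.32 CPM in LIN28A-negative clone 1 and without a count in clone 2, at least 52.3-fold, and at 0.996 to 1.37 CPM against 3 counts in all with LIN28A, 26.4-fold (95% counting interval 8.70 to 131). Both clones were below wild type for CXCL5 (9.98 and 3.89 CPM). CXCL2, CXCL8, IL6 and LCN2 were higher in clone 2, CXCL8 with log2 differences of -2.08 and -2.34, and IL11 was higher in clone 1 by 2.16 and 2.24. SAA1 and SAA2, near-identical acute-phase genes whose counts are uncertain, were higher in clone 1.

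Redox and carbonyl-reducing enzymes were more often higher in clone 1. Of 28 tested members of the list of NRF2 targets, aldo-keto reductases and glutathione genes, 14 (50%) were higher in clone 1 and 1 (GPX1) higher in clone 2 in both lines, beside 14.3% and 15.1% of all tested genes, with medians of 0.69 and 0.52 log2. GPX1 was no longer called in both lines without LIN28A-negative clone 1 replicate 1 or 3 or clone 2 replicate 4. AKR1C1, a steroid and carbonyl reductase, was at 49.7, 75.5, 87.1 and 56.9 CPM in LIN28A-negative clone 1 against 3.42, 7.23, 4.22 and 3.35 CPM in clone 2, and at 123, 108, 279 and 440.1 against 11.4, 10.2, 7.04 and 14.2 CPM with LIN28A. AKR1C2 and AKR1C3 differed by 3.21 and 3.66 and by 2.60 and 2.26, and the aldose reductase AKR1B1 by 2.09 and 2.35. The AKR1C genes are near-identical, as are GSTM1, GSTM2 and GSTM4, so that single members are uncertain. Classical NRF2 targets such as GCLM (-0.02 and -0.19), HMOX1 (-0.25 and -0.60) and TXNRD1 (0.19 and -0.30) were not called in both lines.

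Several glycolytic genes had the same direction. Of 25 genes of the hypoxia and glycolysis list, 11 (44%) were higher in clone 1 and 0 higher in clone 2 in both lines. The shares over all tested genes were 14.3% and 15.1%, and the list medians were 0.33 and 0.16. In the LIN28A-overexpressing line 12 (48%) were called higher in clone 1 and 3 (12%) higher in clone 2, beside 22.4% and 23.6%. LDHA, lactate dehydrogenase, was at 1899.8, 1992, 1981 and 1825 CPM in LIN28A-negative clone 1 against 646, 706, 680.5 and 803 CPM in clone 2, and at 1109 to 1591 against 446 to 541 CPM with LIN28A. PGK1 differed by 1.08 and 1.19, ALDOA by 0.89 and 1.03, PKM by 0.65 and 0.83 and GPI by 0.53 and 0.82. The hypoxia-responsive genes VEGFA (-0.01 and -1.08) and SLC2A1 (0.13 and -0.34) were not called in both lines.

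Part of the amino-acid response genes were higher in clone 2. Of 24 tested ATF4 target genes, 0 were higher in clone 1 and 10 (41.7%) higher in clone 2 in both lines (medians -0.69 and -0.56). The shares over all tested genes were 14.3% and 15.1%. Among the 10 were the transfer RNA exporter XPOT (-1.22 and -1.71), the mitochondrial enzymes SHMT2 (-1.18 and -1.51) and ALDH1L2 (-0.96 and -1.49) and the pseudokinase TRIB3 (-1.16 and -1.54). XPOT, SHMT2 and ALDH1L2 lie on chromosome 12, whose tested genes were mostly higher in clone 2. The count of 10 was 5 without LIN28A-negative clone 2 replicate 1 and 6 without LIN28A-negative clone 1 replicate 2 or 3 or clone 2 replicate 2 or 3. It was 4 when the wild-type libraries joined the fit. Of 27 sterol and fatty-acid synthesis genes, 8 (29.6%) were higher in clone 2 and 3 (11.1%) higher in clone 1, beside 15.1% and 14.3% of all tested genes. Mevalonate kinase (MVK) differed by -1.12 and -1.32 and acetyl-CoA carboxylase (ACACA) by -0.60 and -0.93, whereas squalene synthase (FDFT1) was higher in clone 1 by 0.83 and 0.95. MVK also lies on chromosome 12.

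**Figure D3:**
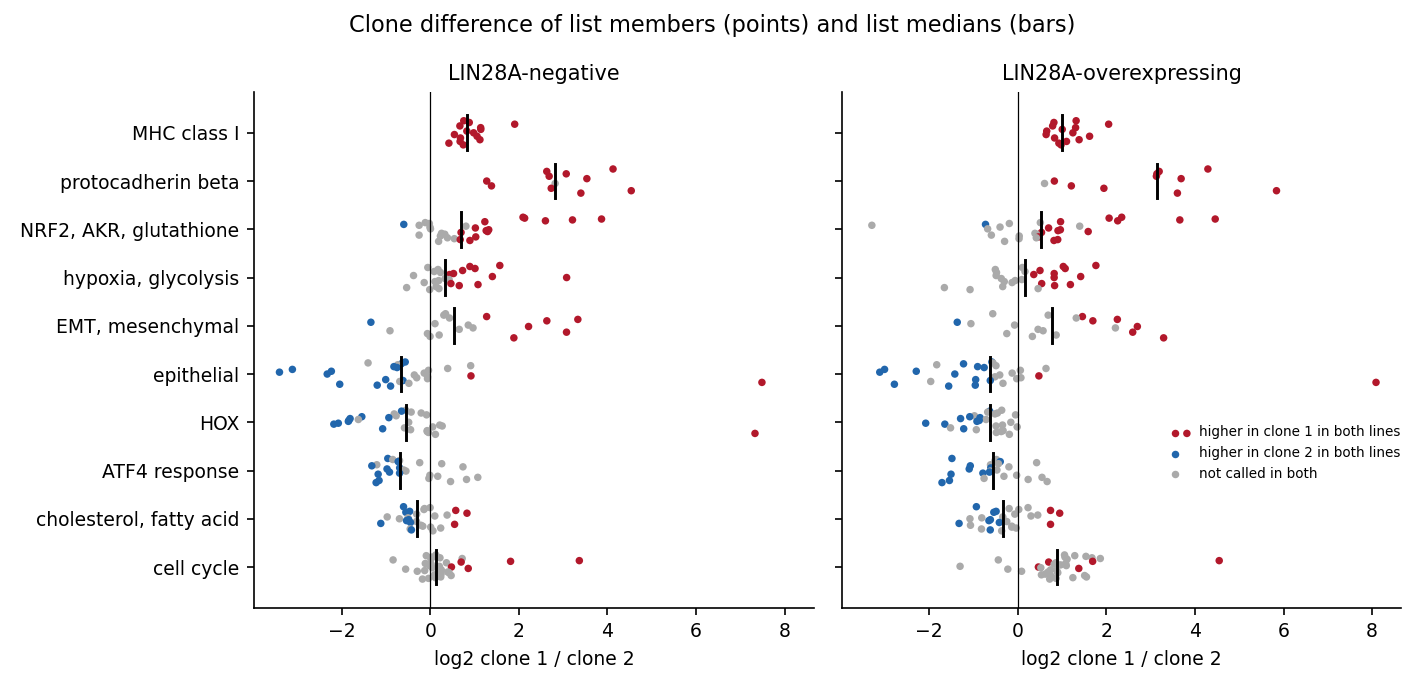
Log2 difference of clone 1 to clone 2 (x axis) for each tested member of 10 gene lists in LIN28A-negative (left) and LIN28A-overexpressing DU145 (right), in red where called higher in clone 1 in both lines, blue where higher in clone 2 in both and grey otherwise, with black bars at the list medians. The MHC class I and protocadherin β members lie to the right in both panels, the ATF4 list median lies at -0.69 and -0.56, and the cell-cycle median lies at 0.13 on the left and 0.88 on the right.

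HOX genes, which encode positional transcription factors, were higher in clone 2 for 9 of 27 tested (33.3%, beside 15.1% of all tested genes) and higher in clone 1 for 1. The 9 were HOXA6, HOXA10, HOXB2, HOXB3, HOXB5, HOXB6, HOXB8, HOXB9 and HOXC5, with HOXB9 at 92.8 against 21.1 CPM and 57.4 against 18.6 CPM. HOXD8 was the exception, at 1.56 CPM in LIN28A-negative clone 1 without a count in clone 2, at least 22.3-fold, and at 3.08 against 0.212 CPM with LIN28A. Clustered protocadherins of the β group, neuronal adhesion genes next to each other on chromosome 5, were higher in clone 1 for 10 of 11 tested (90.9%, beside 14.3% of all tested genes), with medians of 2.82 and 3.14 log2. Their levels were low, with PCDHB9 at 2.35 against 0.202 CPM and 3.04 against 0.248 CPM, and the genes are similar enough that single members are uncertain.

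DNA repair and methylation genes included members with opposite directions. PMS2, a mismatch repair protein, was higher in clone 2, with log2 differences of -0.83 and -0.95. MSH3, which takes part in the recognition of longer loops, was higher in clone 1 by 1.27 and 1.43, with wild type near clone 1 (15.5, 6.28 and 15.3 CPM in clone 1, clone 2 and wild type without LIN28A). MSH3 lies on chromosome 5, 8, 18 or X, whose tested genes were mostly higher in clone 1. In the list of mismatch repair and DNA methylation enzymes 1 of 15 was higher in clone 1 and 4 higher in clone 2, including the methyltransferase DNMT3A (-0.82 and -0.59) and the methylcytosine dioxygenase TET1 (-1.40 and -2.15). In either direction this was 33.3% of the list, near the 29.4% of all tested genes.

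Genes of lineage and imprinting gave single differences. Of the 5 tested prostate lineage genes 1 was higher in clone 1, and 1, the transporter gene SLC45A3, was higher in clone 2 (log2 differences of -0.84 and -0.84). Among 5 genes of the ovarian list, MECOM was higher in clone 1 and MUC16 higher in clone 2. PEG10, a paternally expressed gene derived from a retrotransposon, was the 1 of 10 imprinted genes tested that differed in both lines, at 62.8 against 10.9 CPM and 88.5 against 14.7 CPM. A second imprinted gene was called when LIN28A-negative clone 1 replicate 4 was left out, and 2 were called with a replicate block. Of 8 neuroendocrine genes tested 3 (SYT11, NEFM and UCHL1) were higher in clone 1 and 1 (SCG5) higher in clone 2, and of 19 YAP/TAZ target genes 2 (IGFBP3 and AMOTL1) were higher in clone 1 and 1 (NT5E) higher in clone 2. In either direction these were 50% and 15.8%, beside 29.4% of all tested genes. The share was 10% for the imprinted list and 40% for each of the prostate and ovarian lists, which held few tested genes.

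More cell-cycle genes were called in one line than in the other. Of 35 tested, 5 were called higher in clone 1 and 1 higher in clone 2 in the LIN28A-negative line, beside 19% and 19.6% of all tested genes. In the LIN28A-overexpressing line 26 (74.3%) and 0 were called, beside 22.4% and 23.6%. The medians were 0.13 and 0.88 log2, and the latter was 1.18 with replicates 1 and 2 only and 0.53 with replicates 3 and 4 only. The difference between lines was called for 0 of the 35 by edgeR, 2 by DESeq2, 9 with a replicate block and 7 without LIN28A-overexpressing clone 1 replicate 3, and 21 had an unadjusted p below 0.05. MKI67 differed by 0.47 and 1.51, CCNB1 by 0.72 and 1.86 and PLK1 by 0.24 and 1.55. The 5 genes called higher in clone 1 in both lines, 14.3% as among all tested genes, were the cyclin genes CCND2, CCND3 and CCNE1 and the CDK inhibitors CDKN1B and CDKN2B, and CCND3 had 194 against 53.5 CPM and 243 against 74.1 CPM. This count fell to 3 without LIN28A-negative clone 1 replicate 1, 2 or 3 and to 2 without clone 2 replicate 3, and a gene was called higher in clone 2 without LIN28A-overexpressing clone 1 replicate 3.

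Some lists had few or no calls in both lines. Of 3 cancer-testis antigens and 7 metallothioneins tested, 0 had the same call in both lines by edgeR or by DESeq2, and 1 gene of each list had the same sign with an unadjusted p below 0.05 in both. Of 220 chromosome 19 genes whose symbol starts with ZNF, 9 were higher in clone 1 and 6 higher in clone 2, 6.82% against 29.4% of all tested genes, and without LIN28A-negative clone 1 replicate 4 the 9 were 15. The lists' medians did not move when members without a count in one clone were set at their bound.

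The clone difference was unevenly spread over the chromosomes. Of 646 tested genes on chromosome 5, 312 were called higher in clone 1 and 29 higher in clone 2 in both lines, with a median log2 difference of 0.60 and 0.58. Chromosome 8 had 213 and 21 of 490 (medians 0.58 and 0.53), chromosome 18 had 68 and 9 of 195 (0.35 and 0.38) and chromosome X 150 and 22 of 462 (0.33 and 0.37). In the other direction, chromosome 21 had 5 genes higher in clone 1 and 45 higher in clone 2 of 130 (-0.48 and -0.43), chromosome 12 had 29 and 238 of 751 (-0.32 and -0.48), chromosome 15 had 29 and 134 of 483 (-0.26 and -0.32) and chromosome 1, which holds TUT4, had 71 and 334 of 1437 (-0.30 and -0.20). The medians over all 14195 placed genes were -0.01 and -0.00. Chromosomes 5, 8, 18 and X, chosen after their medians were seen, held 12.6% of the placed genes tested but 36.4% (743 of 2042) of those higher in clone 1 in both lines and 3.79% of those higher in clone 2. Outside them, 1299 genes were higher in clone 1 and 2055 higher in clone 2, with medians of -0.06 and -0.05. Copy number was not measured in these files.

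**Figure D4:**
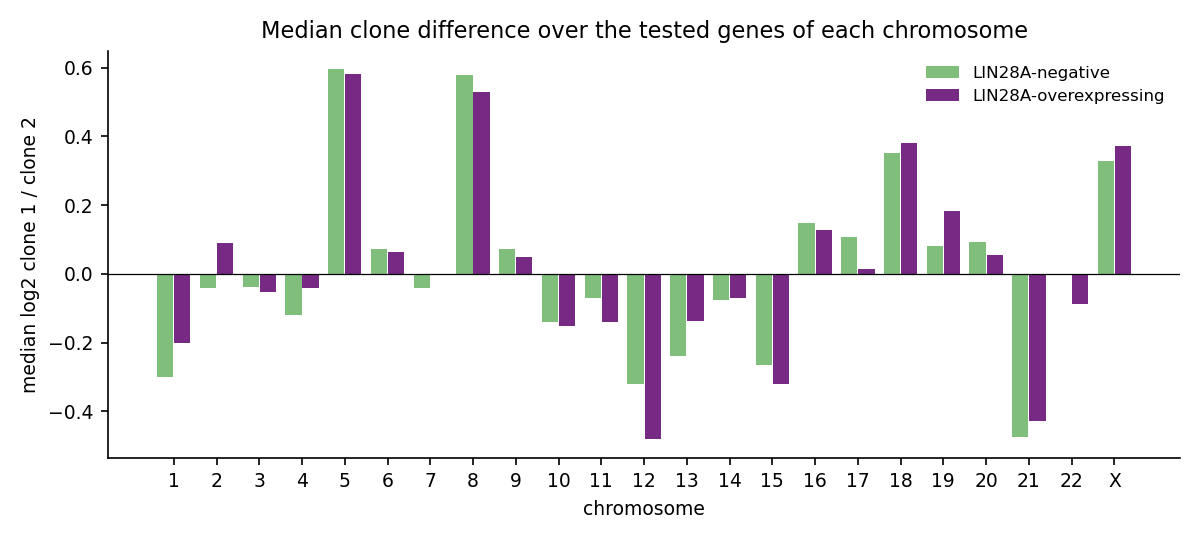
Median log2 difference of clone 1 to clone 2 (y axis) over the tested genes of each chromosome (x axis) in LIN28A-negative (green bars) and LIN28A-overexpressing DU145 (purple bars). Chromosomes 5, 8, 18 and X lie above 0 in both lines, with 0.60 and 0.58 on chromosome 5, and chromosomes 12 and 21 lie below 0.

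The position of wild type differed by chromosome. On chromosome 5, clone 1 was above wild type by a median of 0.18 and 0.19 log2 and the median difference of clone 2 to wild type was -0.46 and -0.42 in the LIN28A-negative and LIN28A-overexpressing lines. On chromosome X clone 1 was above wild type by 0.28 and 0.31, and clone 2 differed from it by -0.10 and -0.08. On chromosome 18 both clones were below wild type, with -0.24 and -0.18 for clone 1 and -0.63 and -0.66 for clone 2. On chromosome 21 both were below as well, with -0.67 and -0.63 for clone 1 and -0.27 and -0.21 for clone 2. The median over chromosome 5 genes, relative to the mean of the 16 mutant libraries, was 0.20 to 0.37 in the 4 LIN28A-negative clone 1 libraries and -0.39 to -0.26 in those of clone 2, and with LIN28A 0.25 to 0.31 and -0.30 to -0.27. The groups did not overlap.

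Within chromosomes the difference was uneven. In 533 windows of 50 consecutive tested genes, moved by 25, the median was past 0.5 log2 towards clone 1 in both lines in 24 and past 0.5 towards clone 2 in 6, a threshold chosen after the values were seen. Joined, they formed 9 stretches with 975 genes. Chromosome 8 from 0.208 to 51.9 Mb (GRCh38.p14) had 175 genes tested, 117 higher in clone 1 and 3 higher in clone 2, with medians of 0.98 and 0.90. It held SFRP1, MYOM2 and NAT2, and here the median difference to wild type was -0.26 and -0.38 in clone 1 and -1.29 and -1.30 in clone 2. On chromosome 5 the stretch from 80.7 to 177.4 Mb had 375 genes, 218 higher in clone 1 and 15 higher in clone 2 (medians 0.68 and 0.69), with SPOCK1, DOCK2 and CAMK4, and a second one from 43.0 to 72.4 Mb had 75 genes, 34 and 1.

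Chromosome 15 from 20.4 to 40.4 Mb was the stretch with the widest difference towards clone 2. Of 75 genes tested, 3 were higher in clone 1 and 47 higher in clone 2, with medians of -1.16 and -1.19 log2. Clone 2 was above wild type there by medians of 0.76 and 0.72, and the difference of clone 1 to wild type was -0.43 and -0.33. HERC2P9 was at 9.39 against 0.645 CPM and 12.1 against 0.867 CPM, and WHAMMP2 and WHAMMP3 differed by -3.67 and -3.75 and -3.28 and -3.28. These are pseudogenes with near-identical copies and their counts are uncertain. The remaining stretches were 3 on chromosome 12, among them 48.8 to 51.5 Mb with the aquaporins AQP2 and AQP5 and DIP2B (26 of 50 higher in clone 2), 1 on chromosome 13 from 95.4 to 113.3 Mb with ZIC2 and ZIC5 (20 of 50 higher in clone 2), and 1 on chromosome 18 from 35.6 to 74.2 Mb (35 of 75 higher in clone 1).

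**Figure D5:**
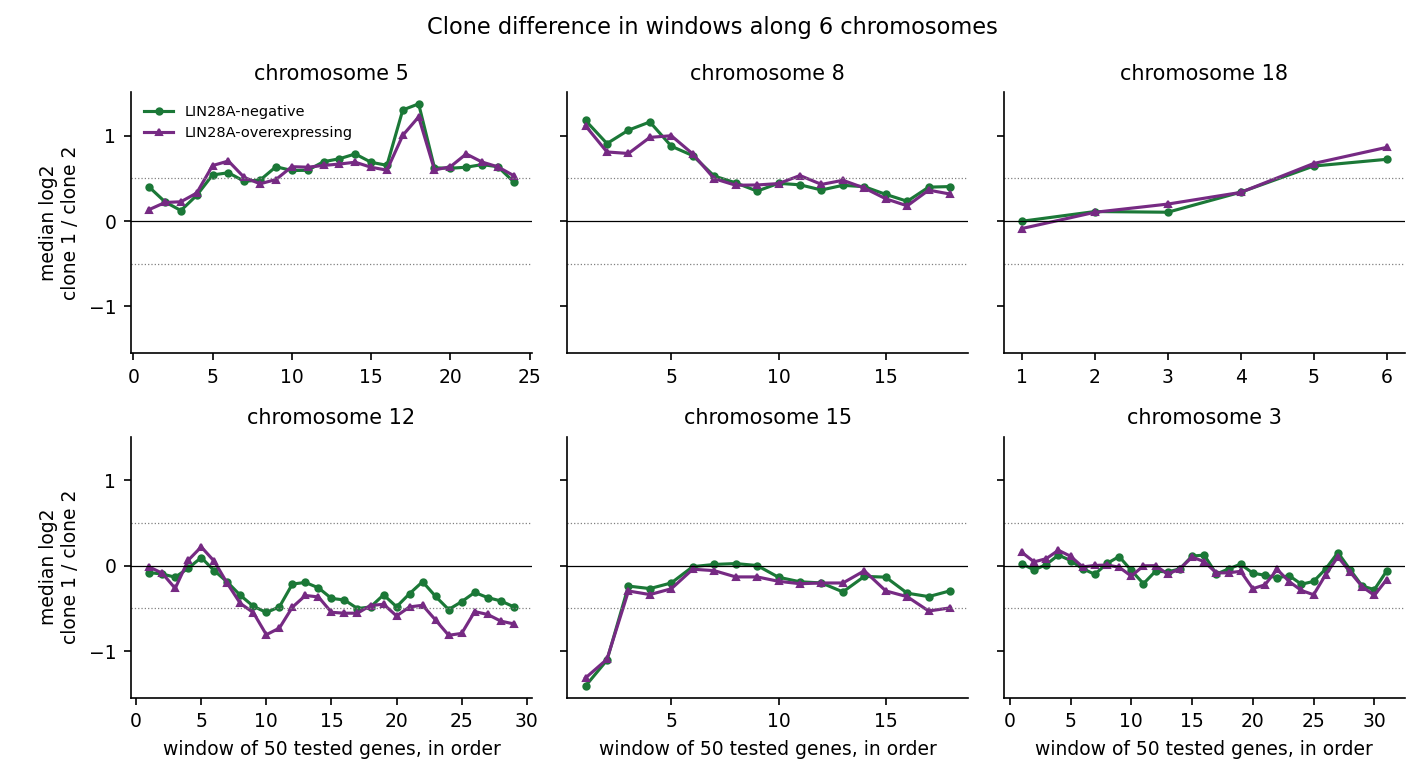
Median log2 difference of clone 1 to clone 2 (y axis) in windows of 50 consecutive tested genes along 6 chromosomes (x axis, window number in order of position) in LIN28A-negative (green circles) and LIN28A-overexpressing DU145 (purple triangles). Dotted lines mark 0.5 and -0.5. The first windows of chromosome 8 lie above and those of chromosome 15 below the dotted lines in both lines, while chromosome 3 stays between them.

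Large single-gene differences were also found on chromosomes whose medians were nearer 0. ROBO1 and BCHE lie on chromosome 3 (medians -0.04 and -0.05), COL5A1 on 9 (0.07 and 0.05), LPCAT2 on 16 (0.15 and 0.13) and MUC16 on 19 (0.08 and 0.18). CSPG4 and ANPEP lie on chromosome 15, outside its stretch. Among the lists, 13 of the 15 MHC class I genes and 12 of the 14 redox genes called in both lines lie outside chromosomes 5, 8, 18 and X, whereas of the 6 mesenchymal genes higher in clone 1 only 2 do and all 10 protocadherins lie on chromosome 5. Of genes higher in clone 1, 9 of the 13 matrix genes and 4 of the 7 proteases and inhibitors lie outside those chromosomes. Of the 3 sterol and fatty-acid synthesis genes higher in clone 1, 1 does. List members higher in clone 2 were not split by chromosomes 1, 12, 15 and 21, whose tested genes were mostly higher in clone 2.

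A minority of genes had a clone difference that depended on the line. The difference between lines was called for 245 genes (1.69% of those tested), towards clone 1 with LIN28A for 77 and towards clone 2 for 168, and 70 of the 245 were among the 4266. With a replicate block, which in the LIN28A-overexpressing line ties libraries of the same passage label, 840 were called. The count of 245 was 162, 151, 147, 455, 161 and 149 without LIN28A-negative clone 1 replicate 2, LIN28A-negative clone 1 replicate 3, LIN28A-negative clone 2 replicate 1, LIN28A-overexpressing clone 1 replicate 3, LIN28A-overexpressing clone 2 replicate 3 and LIN28A-overexpressing clone 2 replicate 4. Another 3671 genes were called in only one line. For 3195 of them the difference had the same sign in the other line, and the difference between lines was called for 148.

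Only 27 genes were called in opposite directions, all 27 with a called difference between lines. NAV3, a neuron navigator gene that binds microtubules, was at 10.6, 18.9, 12.3 and 11.9 CPM in clone 1 and 27.7, 24.7, 23.9 and 34.4 CPM in clone 2 without LIN28A. With LIN28A it was at 8.76, 6.78, 8.80 and 8.50 CPM in clone 1 and 1.85, 1.95, 2.21 and 1.68 CPM in clone 2, so that clone 2 was higher in the first line and clone 1 in the second, a difference between lines of 3.13 ± 0.26 log2 (adjusted p = 2.56e-06). BMPER, a secreted regulator of BMP signalling, also changed its order, with 20.7 against 40.2 CPM and then 11.5 against 6.67 CPM. With a replicate block there were 66. The count of 27 was 16 without LIN28A-negative clone 1 replicate 2, clone 2 replicate 1 or LIN28A-overexpressing clone 2 replicate 3, and 14 without LIN28A-negative clone 1 replicate 3.

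CEMIP, which takes part in hyaluronan breakdown, was at 32.2, 26.9, 14.5 and 8.48 against 39.6, 66.9, 34.9 and 16.5 CPM in the LIN28A-negative line and at 1.55, 1.34, 2.24 and 1.93 against 41.3, 62.6, 42.1 and 52.4 CPM in the LIN28A-overexpressing line. The libraries of the clones overlapped in the first and were far apart in the second, and the log2 differences were -0.95 ± 0.36 (adjusted p = 0.0313, 0.00361 without LIN28A-negative clone 2 replicate 4 and 0.000195 with a replicate block) and -4.82 ± 0.44 (adjusted p = 5.06e-08). EVA1A, which has been tied to autophagy, was higher in clone 1 in both lines, at 14.3, 15.1, 12.6 and 19.4 against 1.61, 1.38, 1.96 and 1.92 CPM and at 13.9, 13.04, 8.19 and 11.6 against 0.143, 0.0574, 0.069 and 0.187 CPM, with a larger difference in the second. Its clone 1 libraries overlapped between the lines, and its clone 2 libraries were all lower with LIN28A.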

How the data were processed

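Poly(A) mRNA libraries (NEBNext Ultra II Directional) of DU145 were used, 4 per clone and line, with 8 wild-type libraries for reference. Per the study's methods and the submitters' processing notes, the authors trimmed reads with Trimmomatic (0.39), removed ribosomal reads with sortmeRNA, aligned to hg38 with HISAT2 (2.1.0) and deposited raw HTSeq counts per gene. The strand setting and annotation release were not given in the sources used here. The summary lines of HTSeq (no feature, ambiguous, not unique, not aligned) were left out of totals and tests.

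The 16 mutant libraries were fitted together as 4 groups with edgeR (4.0.16, R 4.3.3, limma 3.58.1), using filterByExpr, TMM scaling and the quasi-likelihood F test. Contrasts were clone 1 minus clone 2 in each line and the difference of these differences. P-values were adjusted by Benjamini-Hochberg over all 14486 genes, and an adjusted p below 0.01 was a call. CPM used TMM factors over all 24 DU145 libraries. In the LIN28A-negative line same-numbered libraries of the clones deviated together (correlations of 0.141 to 0.593, above 0.1 in 4 of 4 pairs), a pairing seen in the data and not stated by the labels, and blocked values are given where they change a call. Values after ± are SE. Intervals and floors cover counting error only.

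Of 26485 symbols, 23749 matched the RefSeq table (GRCh38.p14) by symbol and 1528 by synonym. Named genes were TUT4, TUT7 and LIN28A, the 12 largest differences in each direction at 5 CPM or more without overlap in both lines, the 6 largest differences between lines, up to 5 opposite genes, up to 4 called members of each of 25 lists with defining members not called, up to 3 genes per stretch and up to 10 genes found in one clone. Some genes that this rule names are not reported here. Other called list members were named after their values were seen. Members and lists were chosen with earlier results of these data known. Y-linked genes and XIST were left out. Alternatives were DESeq2 (1.42.0), other scalings and filters, a replicate block, each line on its own, 24 libraries, an adjusted p below 0.05, replicates 1 and 2 or 3 and 4 only and leaving out each library.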

Additional observations from a re-analysis of the deposited data

Results flagged for a closer look

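Among 81 groups of 4 libraries looked at for 26 named genes, 4 (4.94%) held a library whose distance to the nearest of the others was past Dixon's critical value for the share of the group's range. Chance marks about 1 in 20 groups. In LIN28A-negative clone 2, TUT7 was at 14.75 CPM in replicate 4 against 24.36 to 25.69 CPM in the others, ANPEP at 18.2 CPM in replicate 4 against 11.67 to 12.78 CPM, and SNAI2 at 4.026 CPM in replicate 1 against 2.638 to 2.778 CPM. NAV3 was at 6.782 CPM in LIN28A-overexpressing clone 1 replicate 2 against 8.499 to 8.797 CPM.

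The clone difference itself differed between the lines for 245 genes by edgeR's test of the difference. The named ones, as the log2 clone difference with LIN28A minus that without, were CEMIP (-3.863), EVA1A (3.496), NAV3 (3.135) and BMPER (1.738), whose libraries are described above. For DTX4, an E3 ubiquitin ligase of the Notch pathway, the value was -3.379, from 16.8 against 2.36 CPM without LIN28A to 18.3 against 27.7 CPM with it. Its difference in the LIN28A-overexpressing line was not called (adjusted p = 0.0398) but was called without LIN28A-overexpressing clone 2 replicate 2 (0.00873). For S100A9, a calcium-binding protein of inflammation, it was -3.151, from 5.18 against 4.45 CPM to 1.24 against 9.45 CPM. For the glutathione peroxidase GPX2 it was -3.043, from 2.88 against 3.34 CPM to 1.45 against 13.9 CPM, and the call was lost without LIN28A-negative clone 1 replicate 3 (adjusted p = 0.0124) or clone 2 replicate 1 (0.0101).

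COL3A1, a fibrillar collagen, changed direction by 4.658, from 0.118 against 1.16 CPM to 2.04 against 0.649 CPM, levels at which few counts stand behind each library. S1PR4, a sphingosine phosphate receptor, changed by -1.954, from 4.21 against 2.26 CPM to 1.41 against 3.002 CPM. Its LIN28A-negative difference was no longer called without clone 1 replicate 3 (adjusted p = 0.0182) or 4 (0.0117) or clone 2 replicate 1 (0.0103) or 2 (0.0149). AHRR, the repressor of the aryl hydrocarbon receptor, changed by -1.528, from 7.04 against 3.84 CPM to 7.36 against 12 CPM, and its difference between lines was lost without LIN28A-negative clone 1 replicate 2 or 3, clone 2 replicate 1, 2 or 3, or LIN28A-overexpressing clone 1 replicate 1, 2 or 4 or clone 2 replicate 3 or 4 (adjusted p of 0.0101 to 0.0184).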

How the results depend on the processing

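No call among the named genes or counts reversed under any alternative run, and the 288 named values kept their side of the threshold with DESeq2, DESeq2 size factors, upper-quartile scaling and no filter on low counts. Calls were lost for 52 of 286 with replicates 3 and 4 only, 19 of 286 with replicates 1 and 2 only, 7 of 286 with 24 libraries, 2 of 256 with each line on its own and 1 to 9 of 288 with 1 library left out. The count of genes whose difference depended on the line moved most, from 245 (1.69% of those tested) to 626 (4.32%) with DESeq2, 840 (5.8%) at an adjusted p below 0.05 and 1 (0.00688%) with replicates 3 and 4 only, and to 1.09% with 24 libraries. With replicates 3 and 4 only, 2164 genes were called without LIN28A, 2760 with it, 1502 in both with the same sign and 1035 of those at 1 log2 or more, and chromosomes 5, 8, 18 and X held 46.51% of the genes higher in clone 1. This share was 41.3% with replicates 1 and 2 only and 32.33% at an adjusted p below 0.05. Fewer samples entered the subsets of replicates, which also differed in passage. In every group the sample numbers in the library names were the same for replicates 1 and 2 as for 3 and 4. What these numbers stand for was not given in the sources used here, and the other causes were not tested. In the LIN28A-overexpressing line same-numbered libraries had correlations of their deviations of -0.129 to 0.386, above 0.1 in 3 of 4 pairs. There 4 of 8 libraries matched their own number best, and same-numbered libraries had the same passage label. The main fit held no block. With a replicate block the difference between lines was called for 840 genes (5.8%), the same-direction count was 5237 (4221 of them among the 4266), the chromosome share was 33.48%, and 4 named values were newly called (TUT7 in each line, CEMIP without LIN28A and DTX4 with it). Leaving out 1 library gave 4784 to 5728 calls without LIN28A, 5841 to 7087 with it, 3747 to 4331 in both, 1499 to 1622 at 1 log2 or more, 147 to 455 (1% to 3.13%) for the difference between lines, 14 to 34 opposite, a chromosome share of 35.05 to 37.81%, wild type in between for 142 to 147 and 143 to 150 genes, and 17 to 23 and 4 to 6 genes found in one clone only. Depth limits calls for genes near 0, such as COL3A1. The ATF4 list had 4 genes higher in clone 2 with 24 libraries.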
